A study of Mus musculus with 6 samples.

Results

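The 38 genes described here belong to the interferon response and were taken by name: 4 receptor chains, 23 genes that answer mainly to type I interferon, and 11 that answer mainly to interferon gamma. All 38 were found among the 49671 genes of the count tables, and all 38 passed the filter on low counts, which left 15608 genes to test. RNA was sequenced from 6 libraries of Podoplanin-positive cells sorted from tumours that FC1199 cells, a mouse pancreatic cancer line, had formed in the pancreas of C57BL/6J hosts. Every host carried Rosa-mTmG, a reporter that shows red Tomato until Cre recombinase turns it to green GFP, together with Fabp4-Cre. Hosts received the cells at 8 weeks of age, and tumours grew for 4 weeks with no treatment, so that the animals were 12 weeks old at harvest. The 3 GFP libraries hold, by their labels, cancer-associated fibroblasts derived from stellate cells, and the 3 Tomato libraries hold those of other origin; genotype, tumour line and age were shared by both. Fabp4 is also active in fat cells, endothelium and some macrophages, so Cre driven by its promoter is not limited to stellate cells. Whether replicates are separate animals is not labelled, so p-values measure the spread between these libraries, which may be technical. Podoplanin itself (Pdpn) was even, at 376 to 444 CPM (a gene count relative to library total, TMM-scaled) in GFP and 411 to 449 in Tomato.

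Interferons are secreted alarm proteins. Type I interferons bind the receptor of Ifnar1 and Ifnar2 chains, whose signal brings a complex that holds STAT2 and IRF9 to a promoter element called the ISRE. Interferon gamma, made mainly by T and NK cells, binds the receptor of Ifngr1 and Ifngr2 chains, and its signal acts through an element called GAS; IRF1, itself a product of that signal, then binds ISRE-like sites. The type I answer is rich in antiviral proteins (Ifit, Oas, Mx families), while the gamma answer is rich in large GTPases of the Gbp family and the IRG family (Irgm1, Irgm2, Igtp, Iigp1, Tgtp1) that attack vacuoles holding microbes. Many genes answer to both, so the classes used here are tendencies.

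The 2 elements could be seen in the promoters of these genes. In the RefSeq promoter table (GRCm38.p6), 31 of the 38 had an entry; Mx2, Usp18, Ifi27, Dhx58, Rtp4, Gbp6 and Iigp1 had none. The 250 bases before each start were searched on both strands for the ISRE core (GAAA, any 2 bases, GAAA) and for GAS (TTCNNNGAA, where N is any base); matches may overlap each other. An ISRE core lay before 16 of the 31 genes, against 3.46% of 27025 genes in the table, and a GAS match before 11, against 8.13%. By class, the ISRE core was found in 8 of 9 gamma-type, 8 of 18 type I-type and 0 of 4 receptor genes, and GAS in 6, 4 and 1 of them. The genes below were lower in GFP (Ifit3 just missed the threshold) and are shown as the 8 members with a match and the smallest adjusted p; Gbp7 and Irgm2, which passed no test, were added afterwards for contrast. Each stretch lies wholly before the RefSeq start and reads 5′ to 3′ along the gene, and capitals mark the motif matches on either strand.
Gbp2, chr3:142620579-142620638, plus strand: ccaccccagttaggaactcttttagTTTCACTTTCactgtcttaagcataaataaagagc
Tgtp1, chr11:48992289-48992359, minus strand: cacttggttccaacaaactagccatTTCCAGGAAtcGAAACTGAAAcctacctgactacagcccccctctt
Igtp, chr11:58199486-58199555, plus strand: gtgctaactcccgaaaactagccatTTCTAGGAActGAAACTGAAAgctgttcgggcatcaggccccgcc
Irgm2, chr11:58214877-58214947, plus strand: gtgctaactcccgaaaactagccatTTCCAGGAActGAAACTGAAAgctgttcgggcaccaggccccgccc
Gbp3, chr3:142559974-142560039, plus strand: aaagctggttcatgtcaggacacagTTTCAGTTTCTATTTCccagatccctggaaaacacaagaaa
Gbp7, chr3:142530205-142530317, plus strand: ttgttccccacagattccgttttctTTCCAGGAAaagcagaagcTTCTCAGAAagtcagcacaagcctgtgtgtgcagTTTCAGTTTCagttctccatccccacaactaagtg
Gbp5, chr3:142496684-142496915, plus strand: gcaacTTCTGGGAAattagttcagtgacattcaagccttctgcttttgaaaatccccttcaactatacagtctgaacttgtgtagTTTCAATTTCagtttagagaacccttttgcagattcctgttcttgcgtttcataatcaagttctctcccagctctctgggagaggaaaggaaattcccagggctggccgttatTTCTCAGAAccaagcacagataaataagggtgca
Ifit3b, chr19:34607744-34607837, plus strand: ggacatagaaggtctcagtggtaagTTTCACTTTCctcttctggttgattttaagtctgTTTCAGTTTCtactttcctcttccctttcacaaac
Ifit3, chr19:34583348-34583441, plus strand: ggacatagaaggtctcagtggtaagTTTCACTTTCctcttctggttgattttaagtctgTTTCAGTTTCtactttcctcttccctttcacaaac
Oas1a, chr5:120907526-120907648, minus strand: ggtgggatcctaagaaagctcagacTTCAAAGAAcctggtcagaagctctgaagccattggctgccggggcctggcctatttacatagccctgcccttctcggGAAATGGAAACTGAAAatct
The Ifit3 and Ifit3b stretches were identical over all 94 bases, and those of Igtp and Irgm2 differed at 2 of 70. A GAS and an ISRE core stood a few bases apart in the IRG genes Tgtp1, Igtp and Irgm2. The ISRE core was present in 7 of 11 genes that were lower in GFP and in 9 of 16 induced genes that passed no test.

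**Figure D1:**
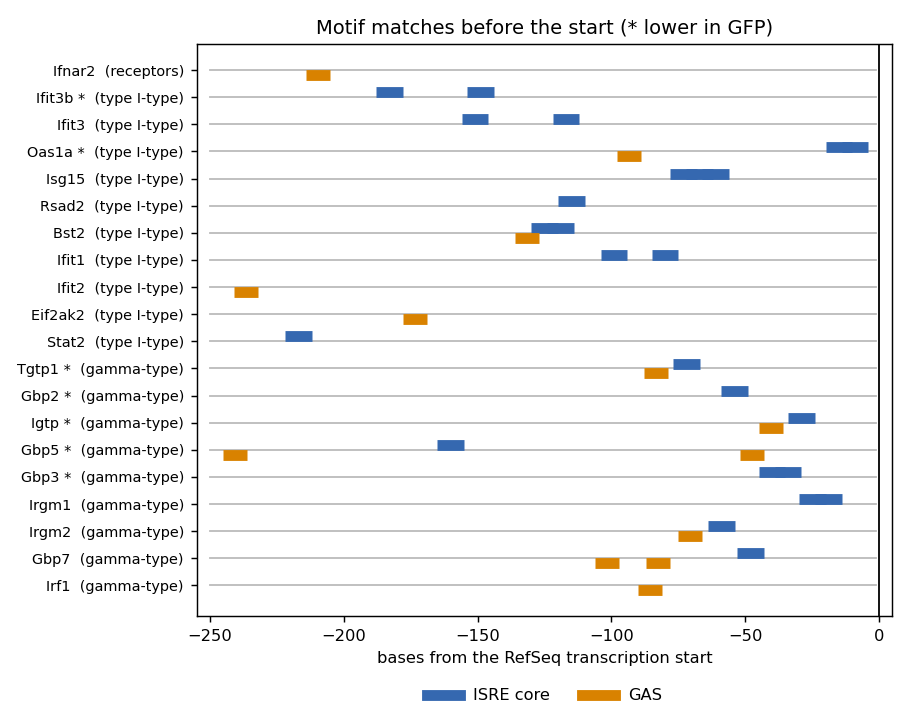
Positions of ISRE core (blue) and GAS (orange) matches in the 250 bases before the RefSeq start of the 20 members with a match; each grey line is a gene and the asterisk marks members lower in GFP. Most gamma-type matches lie within 100 bases of the start, in genes that were lower in GFP as in genes that were not.

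In GFP, 13 of the 38 genes were lower than in Tomato and none was higher (edgeR quasi-likelihood test, Benjamini-Hochberg adjusted p under 0.05 over all 15608 genes). Across all genes 15.7% were lower and 13.1% higher in GFP. A fit blocked by replicate number gave 18 members lower and 1 higher (Stat2), beside 20.9% of all genes lower and 20.1% higher in that fit. The lower genes were 6 of 11 gamma-type genes (Tgtp1, Gbp2, Gbp6, Igtp, Gbp5, Gbp3) and 7 of 23 type I-type genes (Ifit3b, Xaf1, Oasl2, Ifi44, Rtp4, Oas1a, Irf9), and 0 of 4 receptor genes. The median log2 fold change (GFP over Tomato) was -0.46 for the gamma-type, -0.28 for the type I-type and -0.06 for the receptor genes, against 0.00 for all genes tested. The type I-type median was nearer 0 with a correction for the length and GC content of transcripts (-0.12, gamma-type -0.42) and without GFP replicate 3 (-0.14, gamma-type -0.34). Of the gamma-type genes 11 of 11 had a negative fold change, as did 19 of 23 type I-type genes and 49.6% of all genes. The difference between the classes was not tested. All 3 GFP libraries lay below all 3 Tomato libraries for 14 of the 38 genes, against 25.2% of all genes, and above them for 2, against 23.4%. Before adjustment, p was under 0.05 for 1 member higher in GFP (Ifnar1) and 17 lower, and DESeq2 and limma-voom also called none higher, with 15 and 14 lower. Of all genes, DESeq2 called 14.9% lower and limma-voom 15.1%.

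**Figure D2:**
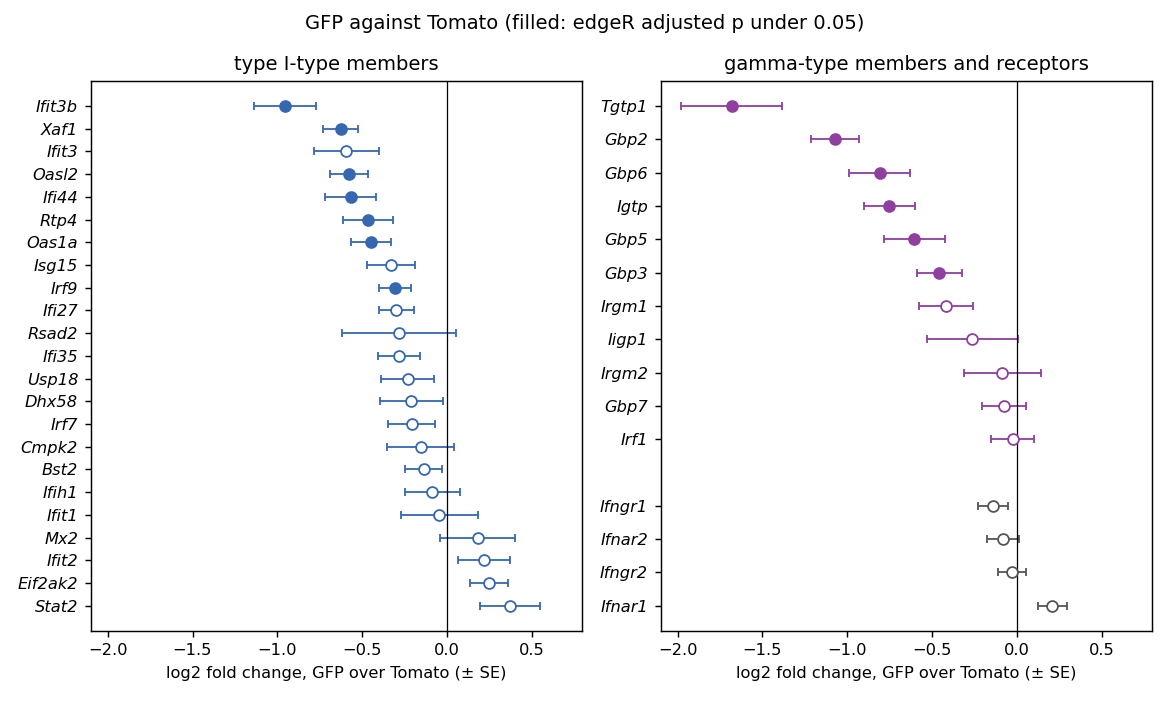
Log2 fold change of each member, GFP over Tomato, with its standard error (bars); filled points passed an adjusted p of 0.05. The gamma-type genes span from Tgtp1 at -1.68 to Irf1 near 0, and the receptors lie within 0.21 of 0.

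**Figure D3:**
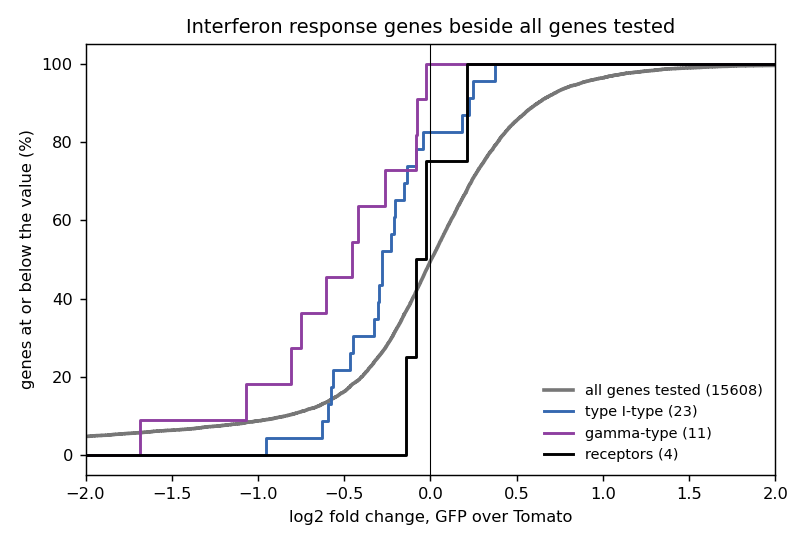
Cumulative share of genes by log2 fold change, GFP over Tomato, for the type I-type, gamma-type and receptor members beside all 15608 genes tested. The gamma-type curve lies left of 0 throughout, and the far left tail of all genes reaches beyond any member.

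The receptor genes were at similar levels in both fractions. Ifnar1, 1 chain of the type I receptor (chromosome 16, 91485238 to 91507441), had 118, 104 and 114 CPM in GFP replicates 1 to 3 and 94.5, 99.4 and 96.3 CPM in Tomato replicates 1 to 3. Its GFP libraries were all above its Tomato libraries, but the difference did not pass (log2 fold change 0.21 ± 0.08 SE, adjusted p = 0.0936). Ifnar2, the other chain, had 99.2 to 119 CPM in GFP and 110 to 119 in Tomato (-0.08 ± 0.09). Ifngr1, which binds interferon gamma, had 121 to 128 and 127 to 144 CPM (-0.14 ± 0.09), and Ifngr2, its signalling partner, 116 to 130 and 123 to 132 CPM (-0.03 ± 0.08). With library size as the only scaling, which moves the median of all genes to -0.16, Ifngr1 passed as lower (-0.30, adjusted p = 0.033).

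The transcription factors and the feedback inhibitor of the pathway differed little between fractions. Irf9, the DNA-binding part of the ISRE complex, had 52.3, 55.6 and 47.6 CPM in GFP and 67.2, 64.9 and 59.9 CPM in Tomato. Its fractions did not overlap, and it was lower in GFP (-0.30 ± 0.09, adjusted p = 0.0413), a call that held only when Tomato replicate 3 was the library left out (adjusted p up to 0.145 for the others). Stat2, its partner in that complex, leaned the other way, at 71.1, 53.2 and 55.4 CPM in GFP and 56.6, 46.5 and 35.8 CPM in Tomato. These ranges overlapped and Stat2 did not pass (0.37 ± 0.18, adjusted p = 0.149), though it passed as higher in a fit blocked by replicate number (0.38, adjusted p = 0.0141) and without Tomato replicate 1 (adjusted p = 0.0328). Irf7, which amplifies type I interferon production, had 93.5 to 134 and 119 to 145 CPM (-0.21 ± 0.14). Irf1, the main factor downstream of interferon gamma, was the most abundant member by counts, with 315, 304 and 264 CPM in GFP and 330, 319 and 249 CPM in Tomato. Its ranges overlapped almost fully (-0.02 ± 0.13, adjusted p = 0.899). Usp18, which silences the type I receptor, had 29.2 to 42.0 and 35.2 to 44.7 CPM (-0.23 ± 0.16).

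Among the Gbp genes, 4 of 5 were lower in GFP, and the size of the difference varied within the family. Gbp2 (chromosome 3, 142620602 to 142638008) had 79.8, 89.3 and 63.0 CPM in GFP and 170, 175 and 142 CPM in Tomato. No GFP library came near a Tomato library, and the level in Tomato was 2.10-fold that in GFP (log2 fold change -1.07 ± 0.14, adjusted p = 0.00135). Gbp6, on chromosome 5, shares 59.7% of its 50-base stretches with other genes (51.5% with Gm43302), so its counts are uncertain. It had 9.10, 9.19 and 6.79 CPM in GFP and 16.6, 15.9 and 11.4 in Tomato (-0.81 ± 0.18, adjusted p = 0.0131), a call lost without Tomato replicate 2 (adjusted p = 0.0541). Gbp5, a guanylate-binding protein that promotes inflammasome assembly, had 7.08, 11.3 and 7.50 CPM in GFP and 13.6, 13.5 and 12.2 in Tomato (-0.60 ± 0.18, adjusted p = 0.0379). Gbp3 had 66.3, 72.6 and 54.0 CPM in GFP and 99.1, 86.7 and 79.0 in Tomato (-0.46 ± 0.13, adjusted p = 0.0319). The calls of Gbp3 and Gbp5 were each lost without replicate 1 or 3 of GFP, or replicate 1 or 2 of Tomato. Gbp7, a neighbour of Gbp2, Gbp3 and Gbp5 on chromosome 3 (142530342 to 142550149), overlapped between fractions, with 44.7, 46.5 and 37.9 CPM in GFP and 52.7, 40.0 and 43.4 in Tomato (-0.08 ± 0.13, adjusted p = 0.676). Within each library the log2 ratio of Gbp2 to Gbp7 was 0.84, 0.94 and 0.73 in GFP and 1.69, 2.13 and 1.71 in Tomato. These ratios restate the fold changes of Gbp2 and Gbp7, and the difference between the genes was not tested.

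The IRG genes were split in a like way. Tgtp1, an IRG GTPase (chromosome 11, 48985327 to 48994172), had the largest fold difference of the 38, with 4.31, 2.63 and 1.75 CPM in GFP and 10.2, 9.88 and 7.82 in Tomato. The fractions were far apart, and Tomato held 3.21-fold more (-1.68 ± 0.30, adjusted p = 0.00549). Since 91.4% of the 50-base stretches of its longest transcript also occur in other genes, chiefly Tgtp2, its counts alone are uncertain. Tgtp2 itself, named after its values were seen, was lower by a similar amount (-1.20 ± 0.17, adjusted p = 0.00184), and their summed counts gave -1.32 ± 0.18 (adjusted p = 0.00173). Igtp, also called Irgm3, a regulator of the other IRG proteins, had 44.2, 49.6 and 34.8 CPM in GFP and 83.2, 69.4 and 64.0 in Tomato, without overlap (-0.75 ± 0.15, adjusted p = 0.00813). Irgm1, a regulator of the same kind, had 64.6, 75.3 and 51.7 CPM against 99.4, 84.1 and 72.6 and did not pass (-0.42 ± 0.16, adjusted p = 0.0777), but passed with the replicate block (-0.42, adjusted p = 0.0101). Irgm2, which overlaps Igtp on chromosome 11 by 162 exon bases, had 80.2, 77.9 and 62.7 CPM against 101, 81.4 and 52.2 (-0.09 ± 0.23, adjusted p = 0.797). Iigp1, an effector that breaks open microbial vacuoles, was the most abundant of the family by counts, at 165, 187 and 106 CPM in GFP and 237, 182 and 130 in Tomato (-0.26 ± 0.27). For the pair Igtp and Irgm2 the log2 ratio within each library was -0.86, -0.65 and -0.85 in GFP and -0.28, -0.23 and 0.30 in Tomato. It likewise restates the fold changes of the pair, whose difference was not tested. The promoter stretches of that pair shown above carry a GAS and an ISRE core at equal spacing.

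**Figure D4:**
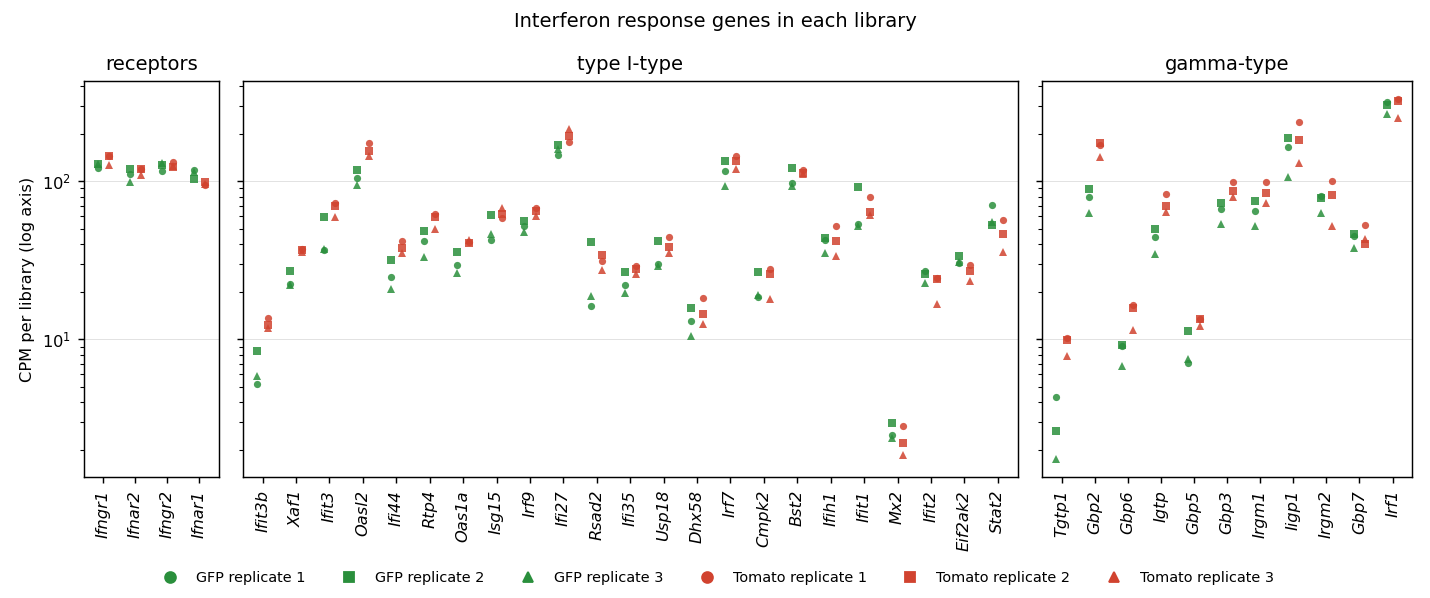
CPM of each member in each library on a log axis, ordered within each class by fold change; green marks GFP, red Tomato, and the marker shape the replicate. Gbp2, Igtp and Tgtp1 show separate green and red clusters, while Irf1, Irgm2 and Gbp7 overlap.

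Of the antiviral effectors, a minority differed. Ifit proteins bind viral RNA that lacks host cap marks, and the 4 Ifit genes lie side by side on chromosome 19. Ifit3b had 5.22, 8.39 and 5.86 CPM in GFP and 13.7, 12.3 and 11.8 in Tomato and was lower in GFP (-0.96 ± 0.18, adjusted p = 0.00698). Its near copy Ifit3 had 36.7, 59.8 and 37.5 CPM in GFP and 72.5, 70.1 and 59.3 in Tomato. GFP replicate 2 reached the lowest Tomato library, and Ifit3 fell just short of the threshold (-0.59 ± 0.19, adjusted p = 0.0505). The pair shares 51.2% (of Ifit3) and 44.5% (of Ifit3b) of its 50-base stretches, and summed it was lower in GFP (-0.64 ± 0.19, adjusted p = 0.0361). Ifit1 had 53.4, 92.0 and 52.4 CPM in GFP and 79.4, 63.5 and 61.0 in Tomato (-0.04 ± 0.23), and Ifit2 had 22.6 to 27.1 and 16.7 to 24.3 CPM (0.22 ± 0.15).

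The Oas family includes enzymes that make the second messenger that activates RNase L, and Oasl2 is a related gene. Oasl2 had 105, 118 and 94.6 CPM in GFP and 173, 156 and 144 in Tomato, without overlap (-0.58 ± 0.11, adjusted p = 0.00719). Oas1a had 29.5, 35.5 and 26.3 CPM in GFP and 41.2, 40.7 and 42.7 in Tomato (-0.45 ± 0.12, adjusted p = 0.0237), and shares 57.6% of its stretches with Oas1g. Oas1g, named after its values were seen, was also lower (-0.62 ± 0.16, adjusted p = 0.0238). Xaf1, a promoter of apoptosis, had 22.3, 26.9 and 22.1 CPM in GFP and 37.4, 36.9 and 35.9 in Tomato (-0.63 ± 0.10, adjusted p = 0.00376). Its Tomato libraries lay within 2 CPM of each other and well above those of GFP. Ifi44 had 24.9, 31.8 and 20.9 CPM against 41.6, 37.9 and 35.4 (-0.57 ± 0.15, adjusted p = 0.0252). Rtp4, a chaperone of receptors, had 41.6, 48.7 and 33.2 CPM against 61.7, 59.3 and 49.5 (-0.47 ± 0.15, adjusted p = 0.0453). Neither overlapped between fractions. The calls of Oas1a and Ifi44 did not survive leaving out Tomato replicate 2, or replicate 1 or 3 of GFP, and that of Rtp4 was also lost without Tomato replicate 1. With the length and GC correction Oas1a (-0.27, adjusted p = 0.0974), Rtp4 (-0.26, 0.252) and Gbp3 (-0.33, 0.105) no longer passed, but each passed with that correction and the replicate block (adjusted p = 0.0465, 0.0273 and 0.0136).

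The other type I-type genes passed no test in the comparison. Isg15, a ubiquitin-like protein joined to many targets, had 42.5, 61.4 and 46.1 CPM in GFP and 58.7, 61.7 and 67.7 in Tomato (-0.33 ± 0.14, adjusted p = 0.11). Rsad2, which encodes viperin, had 16.4, 41.2 and 18.7 CPM in GFP and 31.1, 34.2 and 27.4 in Tomato (-0.28 ± 0.34). In Isg15 GFP replicate 2 lay among the Tomato libraries, and in Rsad2 it lay above them all. Ifi27 had 147 to 170 and 177 to 214 CPM, without overlap (-0.30 ± 0.10, adjusted p = 0.0578), and Ifi35 19.6 to 26.5 and 25.9 to 28.9 CPM (-0.28 ± 0.12). With the replicate block Isg15 (adjusted p = 0.0382), Ifit3 (0.00762), Ifi27 (0.0209) and Ifi35 (0.0412) passed as lower, which with Irgm1 made 18 members lower and, with Stat2, 1 higher; 11 type I-type and 7 gamma-type genes were then lower. In that blocked fit 20.9% of all genes were lower and 20.1% higher. With the length and GC correction as well as the block, Isg15 (-0.05), Ifi27 (-0.01) and Ifi35 (-0.06) were near 0. Bst2, which tethers budding virus, had 93.1 to 120 and 111 to 118 CPM (-0.14 ± 0.11), and Cmpk2, a nucleotide kinase, 18.6 to 26.8 and 18 to 27.7 CPM (-0.15 ± 0.20). The RNA sensor Ifih1 had 35.1 to 43.5 and 33.9 to 52.3 CPM (-0.08 ± 0.16), and Dhx58, a relative that modulates it, 10.5 to 15.7 and 12.5 to 18.2 CPM (-0.21 ± 0.18). Eif2ak2, the kinase that halts translation on double-stranded RNA, had 30.3 to 33.9 CPM in GFP and 23.3 to 29.6 in Tomato, all GFP libraries above, without passing (0.25 ± 0.11, adjusted p = 0.125). Mx2 was the lowest member, at 2.40 to 2.95 and 1.85 to 2.82 CPM (0.18 ± 0.22). The count for both strands held 64.5% of the summed single-strand counts of Ifi35, 70.7% of those of Dhx58 and 85.1% of those of Usp18, so part of their reads was left out.

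Levels of different genes can be compared only per length, here as mean CPM per kilobase of exon. In Tomato the order was led by Ifi27 (133 ± 12.6, SD, n = 3), Bst2 (126 ± 3.55), Isg15 (83.0 ± 6.04), Irf1 (75.4 ± 11) and Gbp2 (64.6 ± 7.03). Ifi27 and Bst2 lay within their spread of each other, as did Isg15 and Irf1, and Irf1 and Gbp2. In GFP the same measure was led by Bst2 (115 ± 16.3) and Ifi27 (108 ± 7.89), then Irf1 (74.1 ± 6.75) and Isg15 (66.1 ± 13.3), whereas Gbp2 stood 8th at 30.8 ± 5.30. The receptor chains were mid-ranked, from 16.3 ± 0.418 (Ifnar1) to 48.6 ± 3.61 (Ifngr1) in Tomato. Tgtp1, Gbp6, Gbp5 and Mx2 were the 4 lowest in Tomato, from 2.90 ± 0.405 down to 0.635 ± 0.137. The places of Tgtp1 and Gbp6 are uncertain, since 91.4% and 59.7% of their 50-base stretches occur in other genes. Exon lengths join all transcripts of a gene, so Gbp5 was divided by 6637 bases though its longest transcript has 3756.

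The libraries of a fraction also differed from each other across many members at once. In GFP, replicate 2 was the highest library for 21 of 23 type I-type and 8 of 11 gamma-type genes, and replicate 3 was the lowest for 15 and 10. In Tomato, replicate 1 was the highest for 19 and 10 and replicate 3 the lowest for 20 and 10. The same counts were not made over all genes, so this order is not shown to be particular to the members. In Tomato the summed fibroblast markers fell from replicate 1 to replicate 3 and the summed macrophage markers rose, as given below. The mean log2(CPM + 0.5) of the type I-type genes was 5.04, 5.37 and 4.94 in GFP and 5.50, 5.39 and 5.23 in Tomato, so GFP replicate 2 lay within the Tomato range. For the gamma-type genes it was 5.44, 5.52 and 5.06 in GFP and 6.10, 5.93 and 5.65 in Tomato, with no overlap. Their summed CPM, in which the abundant genes weigh most, did overlap, at 880, 926 and 690 in GFP and 1213, 1077 and 864 in Tomato. Without GFP replicate 2, 16 members were lower, among them Isg15, Ifit3, Rsad2 and Ifi35, and Irf9 was lost. Without GFP replicate 1 or GFP replicate 3, 7 members were lower, and without Tomato replicate 2, 6. Without Tomato replicate 1, 10 members were lower, with Irf9, Rtp4, Gbp3 and Gbp5 lost and Ifi27 added. Without Tomato replicate 3, 14 were lower. Calls over the whole table changed too, from 15.7% of all genes lower with every library kept. That share was 8.61% without GFP replicate 1, 10.7% without GFP replicate 2, 9.66% without GFP replicate 3 and 9.56% without Tomato replicate 2. It was 12.3% without Tomato replicate 3, and it rose to 17.4% without Tomato replicate 1, where fewer members were lower. Ifit3b, Oasl2, Xaf1, Gbp2, Igtp and Tgtp1 kept their call whichever single library was left out.

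Markers of other cells differed between the fractions too. Of 16 macrophage and monocyte markers 16 were lower in GFP, with a summed level of 136 to 212 CPM against 959 to 2354 CPM, and none was at 0 in any library. Csf1r, a receptor that defines macrophages, had 15.3, 19.1 and 21.4 CPM in GFP and 59.5, 83.3 and 121 in Tomato, and Ptprc, the pan-leukocyte gene, 1.70 to 3.07 and 17.0 to 30.2 CPM. Of 11 mesothelial markers 10 were lower (156 to 182 against 1306 to 1592 CPM summed, none at 0), as were 5 of 6 neutrophil markers tested of 8 listed (2.42 to 4.06 against 23 to 32.6 CPM; Ly6g at 0 in 5 libraries and Elane in 1) and 2 of 3 dendritic cell markers tested of 8 (27.1 to 28.4 against 43.6 to 58.1 CPM; Siglech at 0 in 2 libraries). Of 11 epithelial markers tested of 12 listed, 5 were lower (99.0 to 122 against 373 to 463 CPM; Tff1 at 0 in 4 libraries), while 6 of 6 lymphatic endothelial markers were higher in GFP (352 to 538 against 48.1 to 100 CPM). Of 11 blood endothelial markers 7 were higher and 1 lower (169 to 236 against 104 to 130 CPM), and 2 of 2 B and plasma cell markers tested of 7 listed were lower (1.02 to 2.15 against 5.48 to 9.49 CPM). Of 6 acinar markers none passed (102 to 362 against 336 to 673 CPM), but 6 were lower with the replicate block. Fibroblast markers, at 62530 to 143300 CPM summed, led both fractions, and 6 of 10 were higher in GFP. Macrophages and other immune cells make many of the members, and in a bulk sample fewer cells of a type and less RNA per cell cannot be told apart; the part of these markers in the member differences was not tested. Within Tomato the macrophage sum was 959 CPM in replicate 1, 1572 in replicate 2 and 2354 in replicate 3. Replicate 3, the highest by that sum, was the lowest Tomato library for 32 of the 38 members, a count not made over all genes. In the same order the fibroblast sum was 95500, 77900 and 62530 CPM and the mesothelial sum 1430, 1592 and 1306 CPM, both lowest in replicate 3. How the members relate to any of these sums was not tested.

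**Figure D5:**
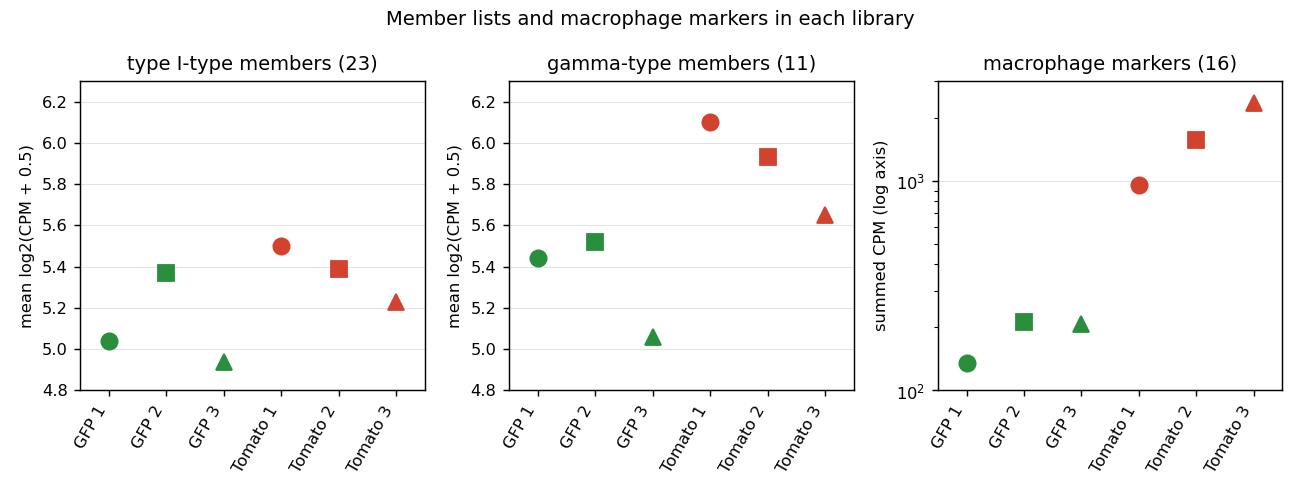
Mean log2(CPM + 0.5) of the 23 type I-type and 11 gamma-type members, and summed CPM of 16 macrophage markers (log axis), in each library; green marks GFP and red Tomato. Among Tomato libraries, replicate 3 is the lowest of both member panels and the highest of the marker panel. How the panels relate was not tested.

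The interferons themselves were barely detected. Of 21 ligand genes none passed the filter; Ifnb1, the first type I interferon made by most cells, had 2 to 6 counts per GFP library and 9 to 14 per Tomato library, and Ifng had 1 to 2 and 1 to 4. Cd3e, which defines T cells, stood at 0.0538 to 0.225 CPM in GFP and 0.163 to 0.360 in Tomato, and 1 of 10 T and NK cell markers could be tested. The signalling kinases passed no test: Jak1 had 459 to 546 CPM in GFP and 356 to 477 in Tomato (0.23 ± 0.13), Jak2 92.9 to 124 and 90.4 to 99.1 CPM (0.19 ± 0.11), and Tyk2 14.0 to 22.1 and 17.2 to 18.7 CPM (0.05 ± 0.16).

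Other genes of the pathway, from lists that leave out the 38, gave 26 lower and 1 higher of 91 tested. Of 22 kinases, further STAT and IRF factors and inhibitors, 5 were lower and 1 higher in GFP; with the replicate block 2 were higher, the added one being Irf2 (0.26, adjusted p = 0.0419), named after its values were seen. The phosphatase gene Ptpn6, active in blood cells (0.781 to 1.55 against 8.49 to 22.4 CPM, -3.76 ± 0.42, adjusted p = 0.00119), and Irf5, a factor of macrophages (-2.52 ± 0.30, adjusted p = 0.0014), were lower. The phosphatase gene Ptpn11 was higher (0.29 ± 0.08, adjusted p = 0.0358). That call held only when GFP replicate 2 was the library left out, and not with the length and GC correction (-8.8e-05). Of 14 genes of nucleic acid sensing tested, 2 were lower, Tlr7 (-1.11 ± 0.24, adjusted p = 0.0106) and Zbp1 (-0.51 ± 0.13, adjusted p = 0.0193; 0.0566 without Tomato replicate 2). With the replicate block 3 were lower, the added one being Samhd1 (-0.34, adjusted p = 0.0091), named after its values were seen. Of 39 further type I-induced genes tested, 11 were lower, led by Epsti1 (-1.91 ± 0.35, adjusted p = 0.00597) and Herc6, an ISG15 ligase (-0.68 ± 0.13, adjusted p = 0.00691), and none was higher (1 by unadjusted p or by DESeq2, none by limma-voom); with the replicate block 15 were lower and 1 higher, Oas2 (0.48, adjusted p = 0.00308), named after its values were seen. Of 16 further gamma-induced genes tested, 8 were lower, led by Fcgr1, a macrophage Fc receptor gene that is also among the macrophage markers (-3.83 ± 0.34, adjusted p = 0.00022), and Cd274, which encodes the checkpoint ligand PD-L1 (9.27 to 12.1 against 24.0 to 31.0 CPM, -1.40 ± 0.15, adjusted p = 0.000457). None of the gamma-induced genes was higher (none by unadjusted p, DESeq2 or limma-voom, and 2 with the replicate block, F830016B08Rik and Cxcl9, named after their values were seen). The shares that were lower, 14.3% of the sensing, 22.7% of the kinase and factor, 28.2% of the further type I-induced and 50% of the further gamma-induced genes, stand beside 15.7% of all genes; these lists hold genes of macrophages, whose markers were lower in GFP as described, and that part was not tested.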

How the data were processed

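RNA-seq libraries were built with an Illumina TruSeq kit from total RNA, per the labels' protocols. Each library's table, as the authors deposited it, holds raw gene counts ignoring strand and for either strand, per the file headers. Trim Galore 0.4.3, STAR 2.5.2b and the build GRCm38 are named in the submitters' processing notes, with no roles; the annotation release is not given in the sources used here. Counts that ignore strand were analysed, since the strand columns were nearly equal (ratio 1.002 to 1.006). Totals per library ran from 33378377 to 42154933 counts. Small differences of scarce members may be missed with these libraries, which was not tested. Names, positions (1-based) and exon lengths came from GENCODE M21 (GRCm38), which matched 49412 of 49671 identifiers; the other 259 held 0.00762% of counts. Older names Mb21d1 and Lgp2 were matched through RefSeq synonyms, and Lgp2 (a member, Dhx58), Gbp1 and Ccl21a were dropped from the lists.

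GFP was compared with Tomato by edgeR 4.0.16 in R 4.3.3 (quasi-likelihood F test, robust, TMM scaling, filterByExpr, no block), two-sided, with Benjamini-Hochberg adjustment over 15608 genes. Each standard error is the fold change divided by the root of F. Deviations from the group means correlated between same-numbered libraries (0.403, 0.108 and 0.347, all above 0.1). Between GFP and Tomato libraries of unlike number the correlation ran from -0.392 to 0.0281. Same-numbered libraries may therefore be pairs, though no label says so. The main comparison was made without a block and does not use that pairing. Blocked values stand beside the members and pathway lists whose calls they change. No replicates were duplicates (chi-square per degree of freedom 28 to 118). Classes follow the stated rule, with the IRG family counted as gamma-type. All members are named; of the other pathway lists, the 2 higher and the 2 lower genes with the smallest adjusted p in each, besides the kinases, Ifnb1 and Ifng, and a few markers. The members and lists were chosen with earlier results of these data known. Promoters were RefSeq's (GRCm38.p6). The fit was tested on simulated counts. A gene of the pathway lists is not reported here. Alternatives were other scalings and filters, DESeq2 1.42.0, limma-voom (limma 3.58.1), the replicate block, a strand column, a length and GC correction (splines with 4 degrees of freedom) alone and with the block, a threshold of 0.01, a narrower gamma-type class and leaving out each library; summing near-identical genes was added after seeing the data.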

Additional observations from a re-analysis of the deposited data

How the results depend on the processing

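Upper quartile scaling and no filter left 13 members lower and none higher; relative log expression scaling, a filter of 1 CPM, limma-voom and a single strand column gave 14 lower, DESeq2 15, library size scaling 19 (11 of them type I-type) and the length and GC correction 10. In every one of these fits except that correction the 13 were kept. With the replicate block 1 member was higher, which was a type I-type gene, and 11 type I-type genes were lower; joined to the length and GC correction, the block also gave 1 higher member (type I-type). An adjusted p of 0.01 left 6 members lower, 3 type I-type and 3 gamma-type, beside 6.94% of all genes. Leaving out each library gave 6 to 16 members lower and 0 to 1 higher (type I-type 3 to 10 lower and 0 to 1 higher, gamma-type 3 to 7 lower). Library size scaling gave 1128 genes higher and 3851 lower over the whole table (2049 and 2456 with TMM), the replicate block 3137 higher and 3256 lower, a threshold of 0.01 gave 578 higher and 1083 lower, and leaving out a library gave 833 to 2392 higher and 1380 to 2793 lower. The medians of both classes stayed negative. That of the type I-type genes ran from -0.45 (library size scaling, which moves the median of all genes to -0.16) to -0.12 (both length and GC corrections), and from -0.36 to -0.14 without a library; that of the gamma-type genes ran from -0.62 (library size scaling) to -0.42 (length and GC correction), and from -0.55 to -0.34 without a library.

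Signs changed only for genes that passed no test there. With the length and GC correction, alone and with the block, the log2 fold change was 0.039 and 0.045 for Ifngr1, 0.083 and 0.053 for Ifit1, 0.115 and 0.115 for Bst2, 0.114 and 0.124 for Irf1, -0.172 and -0.185 for Tyk2, and -8.8e-05 and -0.00028 for Ptpn11; with library size scaling it was -0.11 for Tyk2. The cause was not tested. Without single libraries it ran from -0.059 to 0.023 for Ifngr2, -0.358 to 0.098 for Ifit1, -0.235 to 0.077 for Ifih1, -0.149 to 0.049 for Irf1, -0.16 to 0.037 for Gbp7, -0.314 to 0.131 for Irgm2 and -0.098 to 0.219 for Tyk2. Counts per library were fewest for Mx2 (68 to 121), Tgtp1 (62 to 438) and Ifit3b (194 to 586). Tgtp1 and Ifit3b kept their calls whichever single library was left out, and the effect of depth was not tested.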
